A study of Mus musculus with 4 samples.

Results

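Stromal and niche genes of the bone marrow were followed across 3 mouse leukemias and 1 normal marrow. The set holds 10 genes chosen by name, namely Col1a1, Col1a2, Col3a1, Sparc, Cxcl12, Kitl, Lepr, Adipoq, Bglap and Cdh5. Probe sets, the groups of oligonucleotides that measure a transcript on the array, were used where the platform annotation gives them exactly 1 gene. By that rule 9 of the 10 genes were measured, with 24 probe sets in all, out of 18193 genes on the array. Bglap had no such probe set and is not analysed here. RNA of 4 samples was hybridised to Affymetrix mouse arrays, 1 array per sample. The mixed lineage leukemia (of MLL immunophenotype) arose from hematopoietic stem or precursor cells carrying both AF4-MLL and MLL-AF4, the 2 fusion genes of a chromosome exchange between the chromatin regulator MLL and the elongation factor AF4. The proB ALL (acute lymphoblastic leukemia of early B-cell immunophenotype) and the B/T BAL (biphenotypic acute leukemia, with B-cell and T-cell markers) arose from such cells carrying AF4-MLL alone. Normal bone marrow was the control, and the series title gives the strain as C57BL6. The growth text in the labels of the normal sample is that of the leukemic samples, so how the normal marrow was obtained is not settled by the labels, and each difference from normal marrow rests on this 1 array. The leukemic cells were taken from the marrow of moribund mice and typed by flow cytometry without sorting, so resident marrow cells could be in the RNA. The labels give no age, no sex and no number of mice behind a sample. Each group held 1 array, so no value of a single array has a replicate error.

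The marrow niche is the surroundings in which blood stem cells are kept. Perivascular reticular cells that carry the leptin receptor (Lepr) secrete the chemokine CXCL12, which holds blood cells in the marrow through the receptor CXCR4, and stem cell factor (Kitl), the ligand of KIT. A large share of these reticular cells also express adiponectin (Adipoq), otherwise known as a hormone of fat cells. Type I collagen, built of alpha-1 (Col1a1) and alpha-2 (Col1a2) chains, type III collagen (Col3a1) and the collagen-binding glycoprotein SPARC form the matrix made by osteoblasts and fibroblasts. Bglap encodes osteocalcin, a bone matrix protein of mature osteoblasts, and Cdh5 encodes VE-cadherin, the adhesion protein of endothelial cell junctions.

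Values are MAS5 signals on a linear scale, and differences are on the log2(signal + 51.5) scale, 51.5 being the 25th percentile over all arrays. The median of all signals, 189, served as a floor: a signal at or below it is treated as no more than 189, and a fold against it is given as "at least". Each gene is described by the probe set whose mean log2 value was the highest, called its representative, and the other probe sets are given beside it. A single array was set against normal marrow without a test, and a gene was counted as different where it differed at least 2-fold on the log2 scale above. Probe sets above the floor made up 57.4% in the mixed lineage leukemia, 46.4% in the proB ALL and 49.0% in the B/T BAL, against 47.2% in normal marrow. Actb probes at the 3' end were brighter than those at the 5' end by factors of 3.10, 2.47 and 4.72 in the same leukemias, against 1.87 in normal marrow, a ratio that reads RNA integrity and labelling. For Gapdh the same ratio was 1.24, 1.28 and 1.14 in the same leukemias, against 0.944 in normal marrow. B/T BAL thus had the highest ratio of the leukemias by Actb and the lowest by Gapdh. The part of these array differences in the results below was not tested. The immunophenotype labels were read against lymphoid genes, and those of 2 arrays were not borne out by each marker. Cd79a and Cd79b, the signalling chains of the B-cell receptor, had 426 and 2484 on the array labelled proB ALL and 216 and 352 on the array labelled B/T BAL, against 1708 and 6035 in normal marrow. On the array labelled proB ALL the natural killer cell receptor genes Ncr1 and Klrk1 had 4694 and 19005, against 251 and 481 in normal marrow. Cd3e, a chain of the CD3 complex that signals for the T-cell receptor, had 11474 on the array labelled B/T BAL. It had 32.3 on that labelled proB ALL, against 372 in normal marrow. Cd3g, another chain of the same complex, had 25806 and 3290 on these arrays, against 632 in normal marrow, so on the array labelled proB ALL the T-cell genes ran both ways. The names proB ALL and B/T BAL are kept below as labels only, and each array is given on its own. The test of the leukemias against normal marrow is also given with each leukemia left out. This was not done for the contrast between both fusions and AF4-MLL alone.

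The 9 measured genes did not move as a block, and each leukemia had its own pattern. On the mixed lineage array 1 of 9 genes (Lepr) exceeded normal marrow by at least 2-fold, as did 18.8% of all 14000 tested genes, and 3 (Col1a2, Sparc and Cdh5) were at least 2-fold lower, against 15.2% of tested genes. On the proB ALL array 1 gene (Col3a1) was at least 2-fold higher, against 11.3% of tested genes, and 7 (Col1a1, Sparc, Cxcl12, Kitl, Lepr, Adipoq and Cdh5) were at least 2-fold lower, against 18.7%. On the B/T BAL array 2 genes (Col1a2 and Col3a1) were at least 2-fold higher, against 15.4% of tested genes, and 3 (Kitl, Adipoq and Cdh5) were at least 2-fold lower, against 17.7%. The median log2 difference of the 9 genes was -0.03 in the mixed lineage leukemia, -1.18 in the proB ALL and -0.13 in the B/T BAL, beside medians of 0.08, -0.11 and 0.05 over all tested genes. In bulk RNA, fewer cells of a type and less RNA per cell cannot be told apart. All 9 measured genes passed the filter of a signal above the floor on at least 1 array. Cdh5 passed it through normal marrow alone and Col3a1 through proB ALL and B/T BAL alone, so a difference of these genes is partly set by the filter.

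**Figure D1:**
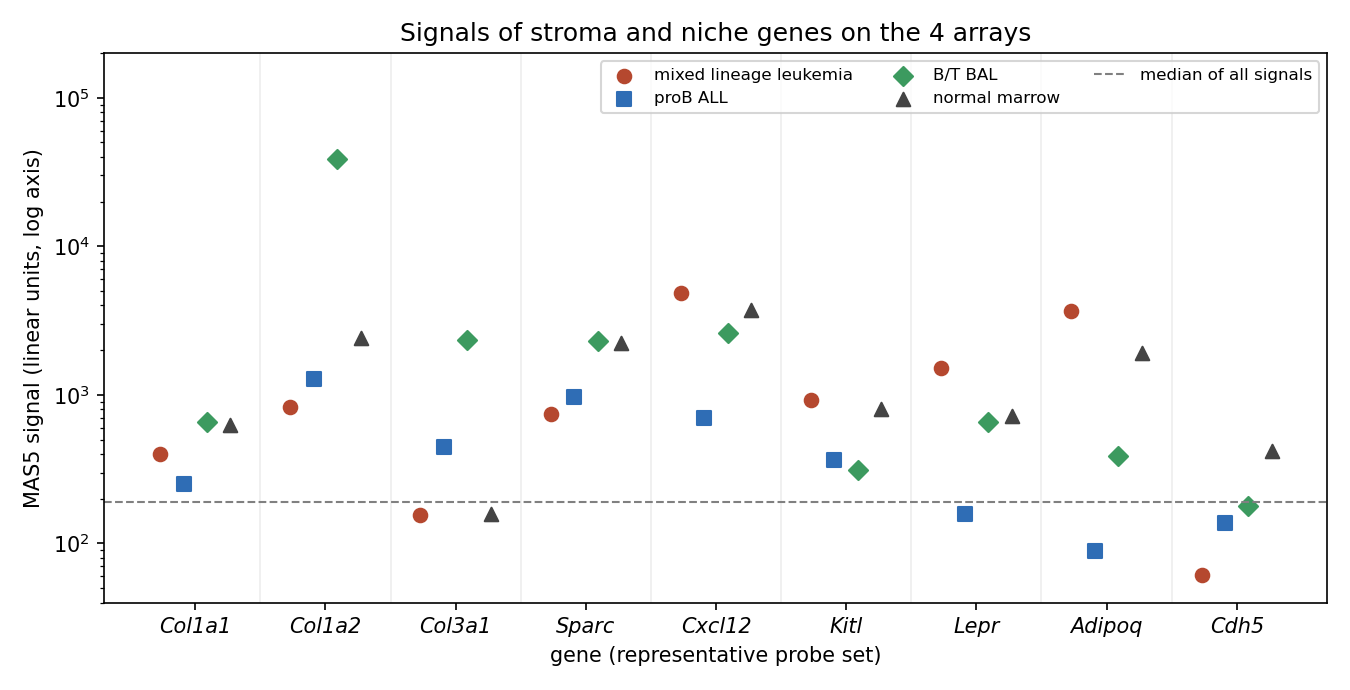
MAS5 signal (log axis) of the representative probe set of each of the 9 measured genes on the arrays of the 3 leukemias and of normal marrow, 1 point per array, with the median of all signals (189) as a dashed line. The B/T BAL point lies far above the other 3 for Col1a2 (38648) and Col3a1 (2324). For Col1a1 and Sparc it is also the highest, but close to normal marrow. The proB ALL point lies below the other 3 for Col1a1, Cxcl12, Lepr and Adipoq. Levels of different genes come from different probes and are not to be compared.

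Col1a2 and Col3a1 were the genes in which B/T BAL stood furthest above normal marrow. Col1a2 had signals of 826 in the mixed lineage leukemia, 1285 in the proB ALL and 38648 in the B/T BAL, against 2397 in normal marrow. B/T BAL alone was above normal marrow, by 16.1-fold, and the other leukemias were 2.90-fold and 1.86-fold below it, in the same order. The log2 difference of B/T BAL was 3.98, and 0.586% of all tested genes had a higher one. A further probe set of Col1a2 had 564, 640 and 21349 in the mixed lineage leukemia, proB ALL and the B/T BAL against 980 in normal marrow, a log2 difference of 4.37 for B/T BAL. The remaining one had 191, 62.4 and 693 in the same leukemias against 28.7 in normal marrow, and it again had its highest signal in B/T BAL. The 3 probe sets thus shared the direction in B/T BAL, while in mixed lineage leukemia this last one was higher than in normal marrow (log2 difference 1.60) and the other 2 were lower.

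Col3a1, the chain of type III collagen, had signals of 155 in the mixed lineage leukemia, 446 in the proB ALL and 2324 in the B/T BAL, against 158 in normal marrow. Mixed lineage leukemia and normal marrow lay below the floor, proB ALL was at least 2.36-fold and B/T BAL at least 12.3-fold above normal marrow. The log2 difference of B/T BAL was 3.50, with 0.929% of tested genes higher. The other probe set of Col3a1 lay at or below the floor on all 4 arrays, with 9.04, 35.1 and 188 in the mixed lineage leukemia, proB ALL and the B/T BAL against 60.1 in normal marrow. It was highest in B/T BAL as well, but did not share the higher signal of proB ALL.

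Col1a1, the partner chain of Col1a2 in type I collagen, did not show the B/T BAL pattern. Its signals were 400 in the mixed lineage leukemia, 252 in the proB ALL and 655 in the B/T BAL, against 624 in normal marrow. B/T BAL differed from normal marrow by a log2 difference of 0.06, mixed lineage leukemia by -0.58 and proB ALL by -1.16. The other probe set of Col1a1 had 44.0, 72.3 and 267 in the mixed lineage leukemia, proB ALL and the B/T BAL against 207 in normal marrow, with log2 differences of -1.44, -1.06 and 0.30. Both probe sets therefore placed B/T BAL near normal marrow while Col1a2 was 16.1-fold above it. Over the 4 arrays the range of Col1a2 was 5.46 on the log2 scale, wider than that of 98.8% of tested genes, and the range of Col1a1 was 1.22, wider than 36.8%.

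The stretch before the start site of Col1a2 and Col3a1 is shown because these collagen genes stood furthest above normal marrow in B/T BAL. Those of Cxcl12 and Adipoq follow for contrast, since these genes had their highest signal in mixed lineage leukemia and their lowest in proB ALL. Each is the 250 bases before the annotated start from RefSeq, build GRCm38.p6, 5' to 3' on the gene's strand. Capitals mark matches on either strand to 3 promoter motifs: CCAAT or its complement ATTGG, the TATA box letters TATAAA or their complement TTTATA, and the GC box letters GGGCGG or their complement CCGCCC; matches may overlap. RefSeq windows were matched for 8 of the 10 genes.
Col1a2, chr6:4505368-4505617, plus strand: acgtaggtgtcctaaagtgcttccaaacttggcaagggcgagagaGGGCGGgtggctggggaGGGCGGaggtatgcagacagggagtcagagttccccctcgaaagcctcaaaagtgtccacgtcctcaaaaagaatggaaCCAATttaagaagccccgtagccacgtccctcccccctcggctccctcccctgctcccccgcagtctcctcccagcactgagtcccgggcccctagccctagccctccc
Col3a1, chr1:45311288-45311537, plus strand: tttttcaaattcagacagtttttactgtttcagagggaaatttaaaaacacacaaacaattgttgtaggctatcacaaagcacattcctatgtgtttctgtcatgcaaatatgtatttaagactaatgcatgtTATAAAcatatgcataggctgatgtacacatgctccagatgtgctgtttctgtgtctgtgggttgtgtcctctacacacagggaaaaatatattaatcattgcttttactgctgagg
Cxcl12, chr6:117168285-117168534, plus strand: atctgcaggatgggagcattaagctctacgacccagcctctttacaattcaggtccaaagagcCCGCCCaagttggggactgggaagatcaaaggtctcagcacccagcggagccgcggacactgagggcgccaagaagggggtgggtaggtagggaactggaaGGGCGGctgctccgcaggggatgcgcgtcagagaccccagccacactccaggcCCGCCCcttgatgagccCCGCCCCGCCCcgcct
Adipoq, chr16:23146286-23146535, plus strand: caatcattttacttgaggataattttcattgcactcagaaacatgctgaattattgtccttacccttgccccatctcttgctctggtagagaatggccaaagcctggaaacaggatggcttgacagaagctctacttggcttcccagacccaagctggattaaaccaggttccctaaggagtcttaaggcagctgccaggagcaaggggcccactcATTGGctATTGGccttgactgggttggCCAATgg
The Col1a2 window held 1 CCAAT match and 2 GGGCGG matches, and the Col3a1 window held 1 TATAAA match and none of the other motifs. The Cxcl12 window held 5 GGGCGG matches, and the Adipoq window held 3 CCAAT matches. Of 32851 such windows, 33.8% held CCAAT, 12.4% held TATAAA and 32.7% held GGGCGG. The windows of Col1a2 and Col3a1 thus shared no motif among the 3 searched.

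Sparc, the collagen-binding matrix glycoprotein, was lower in mixed lineage leukemia and proB ALL than in normal marrow by its representative and near normal marrow in B/T BAL. Its signals were 743 in the mixed lineage leukemia, 964 in the proB ALL and 2307 in the B/T BAL, against 2248 in normal marrow. The folds below normal marrow were 3.02 for mixed lineage leukemia and 2.33 for proB ALL, and B/T BAL had a log2 difference of 0.04. A further probe set, above the floor on all 4 arrays, gave another picture, with 998, 673 and 2590 in the mixed lineage leukemia, proB ALL and the B/T BAL against 1083 in normal marrow. By that one mixed lineage leukemia had a log2 difference of -0.11, proB ALL -0.65 and B/T BAL 1.22. The remaining probe set was above the floor in mixed lineage leukemia alone, with 212 against 130 in normal marrow. Sparc is also made by platelets and their precursors, and the summed signal of 10 megakaryocyte and platelet genes was 3784 in the mixed lineage leukemia, 2608 in the proB ALL and 2987 in the B/T BAL, against 38658 in normal marrow. The part of platelets in the Sparc signal was not tested.

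Among the secreted niche factors, Cxcl12 was far lower in proB ALL and close to normal marrow in mixed lineage leukemia. Its signals were 4840 in the mixed lineage leukemia, 699 in the proB ALL and 2592 in the B/T BAL, against 3731 in normal marrow. ProB ALL was 5.34-fold below normal marrow, a log2 difference of -2.33 with 4.64% of tested genes lower. B/T BAL was 1.44-fold below normal marrow and mixed lineage leukemia 1.30-fold above it. A further probe set had 3260, 355 and 1649 in the mixed lineage leukemia, proB ALL and the B/T BAL against 3525 in normal marrow, with log2 differences of -0.11, -3.14 and -1.07. Both of these probe sets placed proB ALL lowest, while the third lay below the floor on all 4 arrays.

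Kitl, the ligand of KIT, was lower in both leukemias with AF4-MLL alone. Its signals were 930 in the mixed lineage leukemia, 363 in the proB ALL and 314 in the B/T BAL, against 801 in normal marrow. The folds below normal marrow were 2.21 for the proB ALL and 2.55 for the B/T BAL, just past the 2-fold count, and mixed lineage leukemia had a log2 difference of 0.20. Of the other 3 probe sets, 1 lay below the floor on all 4 arrays and 2 were above it on 1 array each, mixed lineage leukemia with 514 in 1 case and normal marrow with 219 in the other. The receptors of these factors are made by blood cells. Cxcr4 had signals of 13733 in the mixed lineage leukemia, 11908 in the proB ALL and 7376 in the B/T BAL, against 8058 in normal marrow, and stayed within 2-fold on each array. Kit had 2061, 1366 and 201 in the same leukemias, against 2413 in normal marrow, and was at least 2-fold lower in B/T BAL alone. Of the 8 receptors and binding partners that passed the filter, 1 was at least 2-fold higher and 1 lower in mixed lineage leukemia. The shares of tested genes there were 18.8% and 15.2%. In proB ALL 1 was higher and 4 lower, against 11.3% and 18.7%, and in B/T BAL 1 and 3, against 15.4% and 17.7%. Among the 4 lower in proB ALL, Ddr2 lay below the floor on both arrays, with 54.3 against 179 in normal marrow. It passed the filter through mixed lineage leukemia alone, so no fold is given for Ddr2.

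Lepr, the leptin receptor that marks perivascular reticular cells, was the 1 gene of the set more than 2-fold above normal marrow in mixed lineage leukemia. Its signals were 1521 in the mixed lineage leukemia, 157 in the proB ALL and 654 in the B/T BAL, against 721 in normal marrow. Mixed lineage leukemia was 2.11-fold above normal marrow (log2 difference 1.03), proB ALL lay below the floor and was at least 3.81-fold below normal marrow, and B/T BAL had a log2 difference of -0.13. One of the other 3 probe sets had 474, 15.2 and 141 in the mixed lineage leukemia, proB ALL and the B/T BAL against 271 in normal marrow, the same order as the representative for its highest and lowest arrays. Another was above the floor in mixed lineage leukemia alone, with 362 against 19.4 in normal marrow. The last ran the other way, with 77.5, 90.2 and 226 in the mixed lineage leukemia, proB ALL and the B/T BAL against 231 in normal marrow. Lep, the gene of its ligand leptin, lay below the floor on all 4 arrays.

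Adipoq, adiponectin, had the widest spread after Col1a2 among the measured genes. Its signals were 3663 in the mixed lineage leukemia, 89.5 in the proB ALL and 388 in the B/T BAL, against 1920 in normal marrow. ProB ALL lay below the floor, at least 10.2-fold below normal marrow, and B/T BAL was 4.95-fold below normal marrow, while mixed lineage leukemia was 1.91-fold above it. The log2 differences were 0.91, -3.81 and -2.17 in the mixed lineage leukemia, proB ALL and the B/T BAL, and 1.35% of tested genes were lower in the proB ALL and 5.56% in the B/T BAL. Adipoq was measured by 1 probe set, so no other probe set bears on it. The adiponectin receptors had bright signals on each array. Adipor1 had 7887 in the mixed lineage leukemia, 2439 in the proB ALL and 1898 in the B/T BAL, against 15852 in normal marrow, and was at least 2-fold lower in all 3 leukemias by this probe set. Its other 2 probe sets were also highest in normal marrow, with 3104, 1143 and 2643 in the same leukemias against 4880 for 1 of them, though by that one the mixed lineage leukemia and the B/T BAL stayed within 2-fold. Adipor2 had 7003, 4515 and 5614 in the same leukemias, against 9123 in normal marrow.

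Cxcl12, Lepr and Adipoq shared the highest signal in mixed lineage leukemia and the lowest in proB ALL. Cxcl12 and Lepr were the nearest pair in the set, with a distance of 0.47 between their log2 profiles centred over the 4 arrays, and 0.193% of tested genes were nearer to Cxcl12 than Lepr was. Adipoq was 1.88 from Cxcl12 and 1.92 from Lepr, and its log2 differences from normal marrow were lower than theirs in both proB ALL and B/T BAL. Neutrophils are no stromal cells, but the sum of their genes had the same highest and lowest arrays, though S100a9 alone was highest in B/T BAL. The summed signal of 7 neutrophil genes was 580529 in the mixed lineage leukemia, 118106 in the proB ALL and 369052 in the B/T BAL, against 352870 in normal marrow. The part of neutrophil RNA in these 3 genes was not tested.

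Cdh5, VE-cadherin of endothelial junctions, was above the floor in normal marrow alone by its representative. Its signals were 61.6 in the mixed lineage leukemia, 138 in the proB ALL and 179 in the B/T BAL, against 419 in normal marrow. Each leukemia was therefore at least 2.22-fold below normal marrow, the 1 gene of the set at least 2-fold lower in all 3 leukemias, where 4.45% of tested genes were. The other probe set of Cdh5 ran against this, with 271, 54.6 and 120 in the mixed lineage leukemia, proB ALL and the B/T BAL against 53.4 in normal marrow, above the floor in mixed lineage leukemia alone. No gene of the set was at least 2-fold higher in all 3 leukemias, against 1.31% of tested genes.

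**Figure D2:**
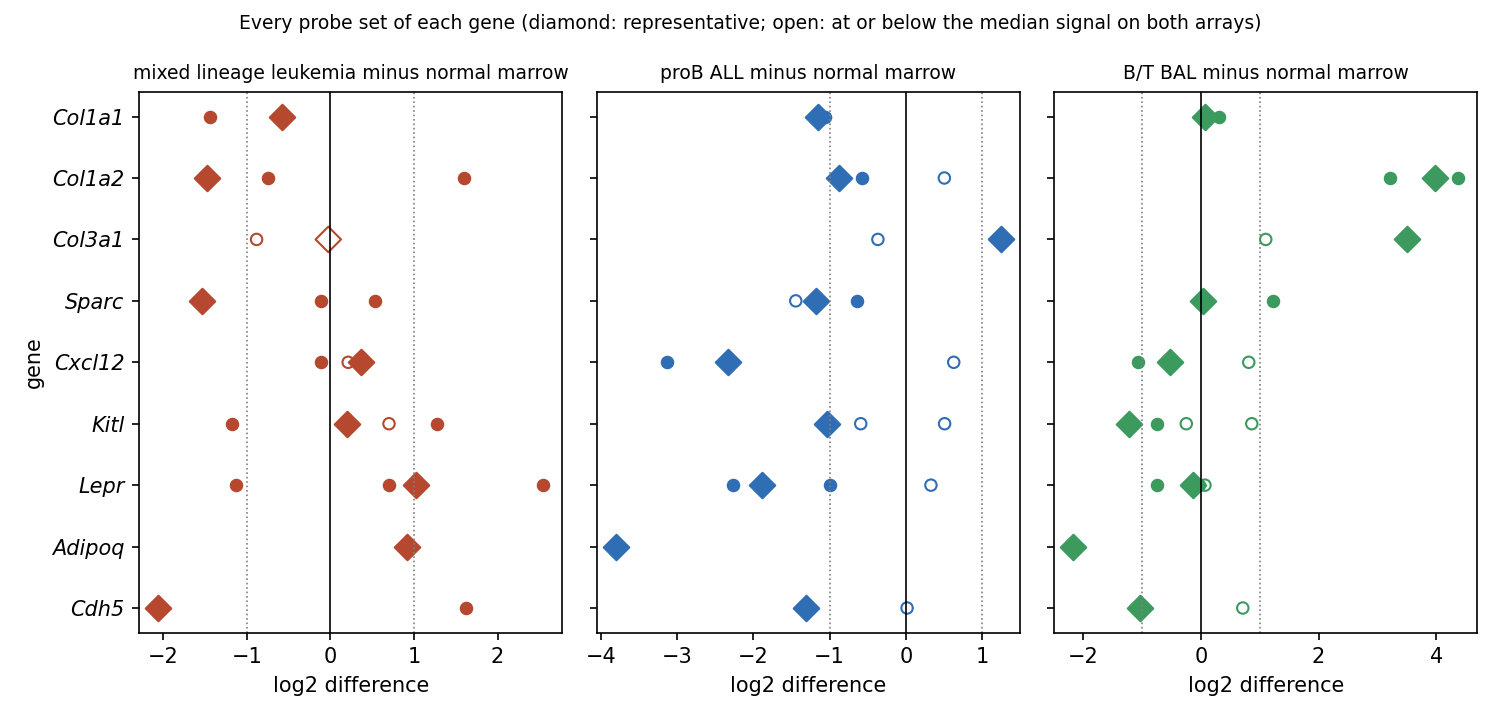
Log2 difference from normal marrow of every probe set of each measured gene in the mixed lineage leukemia, proB ALL and the B/T BAL (diamonds: representative; small circles: other probe sets; open symbols: at or below the median signal on both arrays compared; dotted lines: 2-fold). The 3 Col1a2 probe sets lie to the right in B/T BAL, whereas those of Kitl, Lepr and Cdh5 lie on both sides of 0 in mixed lineage leukemia.

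Set against one another, the leukemias gave the most one-sided count between B/T BAL and proB ALL. Of the 9 genes, 7 were at least 2-fold higher in B/T BAL than in proB ALL and 0 were at least 2-fold lower, where 15.9% of tested genes were higher and 10.5% lower. The 2 exceptions were Kitl, with a log2 difference of -0.18, and Cdh5, below the floor on both arrays. B/T BAL against mixed lineage leukemia had 4 genes (Col1a2, Col3a1, Sparc and Cdh5) at least 2-fold higher, against 21.2% of tested genes, and 3 (Kitl, Lepr and Adipoq) at least 2-fold lower, against 26.3%. Both Cdh5 signals lay below the floor, so no fold is given. Col1a2 was 46.8-fold and Col3a1 at least 12.3-fold higher in B/T BAL, while Adipoq was 9.44-fold lower there. Mixed lineage leukemia against proB ALL had 4 genes (Cxcl12, Kitl, Lepr and Adipoq) at least 2-fold higher, against 27.3% of tested genes, and Col3a1 lower, against 15.7%. In this comparison Cxcl12 was 6.93-fold, Kitl 2.57-fold, Lepr at least 8.04-fold and Adipoq at least 19.4-fold higher in mixed lineage leukemia. These comparisons share arrays with those against normal marrow.

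**Figure D3:**
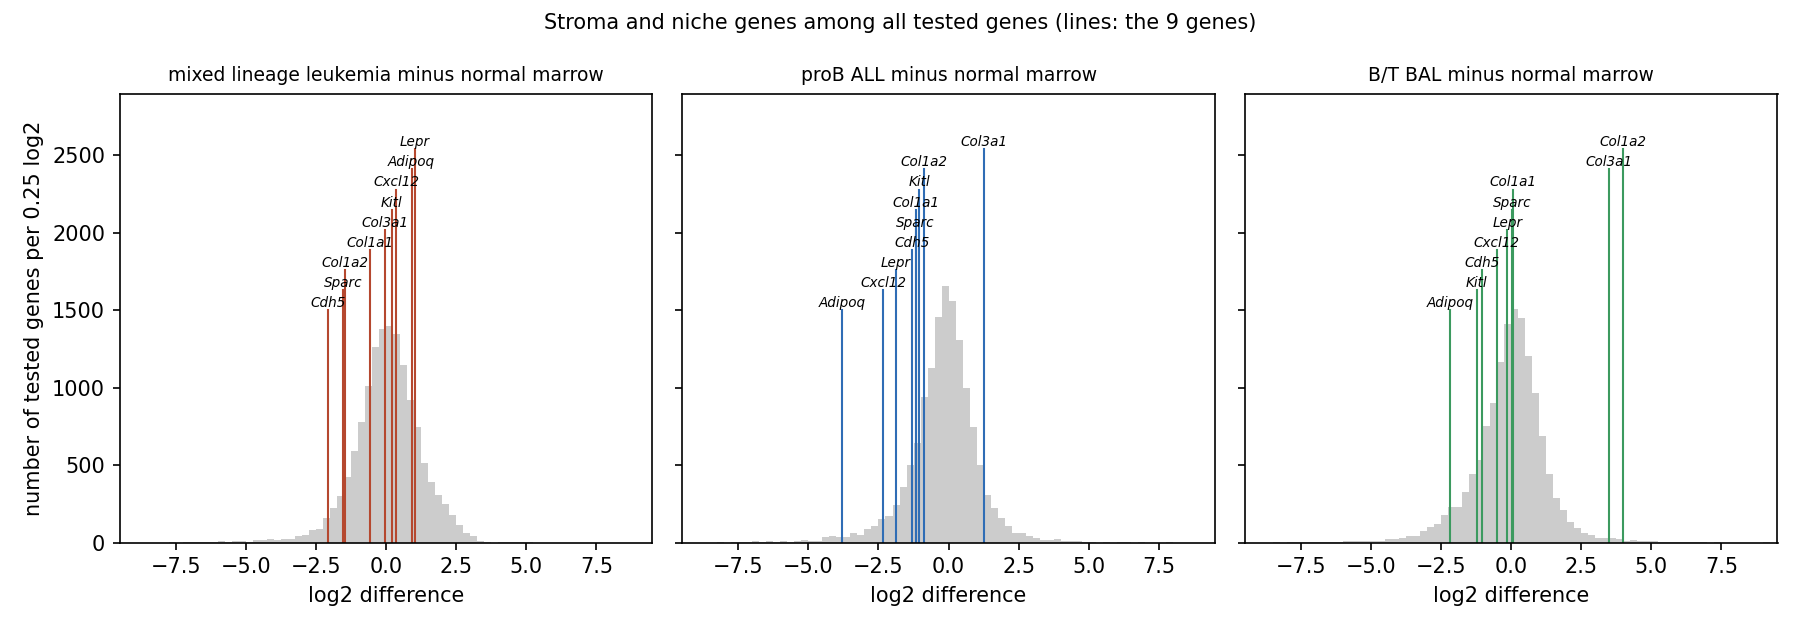
Distribution of the log2 difference from normal marrow over the 14000 tested genes (grey bars, number of genes per 0.25 log2) in the mixed lineage leukemia, proB ALL and the B/T BAL, with the 9 measured genes as labelled lines whose height carries no value. In proB ALL 8 of the 9 lines lie left of 0, and in B/T BAL Col1a2 (3.98) and Col3a1 (3.50) lie in the far right tail.

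The 3 leukemias together were set against normal marrow with limma, fitted over all 14000 tested genes with the spread taken from the leukemias. None of the 9 genes passed at a Benjamini-Hochberg adjusted p of 0.05, and 0 passed at an unadjusted p of 0.05, against 2.95% of tested genes (0.314% higher and 2.64% lower). No tested gene passed the adjusted threshold of limma in either direction (0% each way), and 413 passed unadjusted. The largest mean difference among the 9 genes was that of Adipoq, with a log2 of -1.69 ± 1.59 (SE) and a limma adjusted p of 0.99997, lower in 2 of 3 leukemias. Col3a1 had 1.57 ± 1.32 (SE) and was higher in 2 of 3, and Cdh5 had -1.47 ± 1.003 (SE) and was lower in 3 of 3. Col1a2 had 0.54 ± 1.88 (SE), and without B/T BAL the value was -1.18, so its sign rests on that array. Lepr had -0.33 ± 1.15 (SE), which turned to 0.45 without proB ALL. Adipoq had -2.99 without mixed lineage leukemia and -0.63 without proB ALL, and no gene of the set passed the adjusted threshold with any 1 leukemia left out. The leukemias are of different immunophenotype and not replicates, so these errors measure the spread between leukemias, and normal marrow, with its single array, was taken to vary as much.

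A second limma contrast set the leukemia with both fusions against the pair that carried only AF4-MLL, leaving 1 residual degree of freedom. No gene of the set passed (limma adjusted p from 0.179 for Adipoq to 0.989 for Col1a1), and no tested gene did. At an unadjusted p of 0.05 there was 1 of 9 genes, Adipoq, against 17.8% of tested genes (12.3% higher and 5.47% lower with both fusions). Adipoq had a log2 difference of 3.90 ± 0.998 (SE), and its signal with both fusions, 3663, lay above both signals with AF4-MLL alone, 89.5 and 388. Lepr had 2.04 ± 1.03, Cxcl12 1.80 ± 0.88 and Kitl 1.34 ± 0.79 in the same comparison (SE). The collagens ran the other way, with -3.04 ± 1.95 for Col1a2 and -2.40 ± 1.16 for Col3a1 (SE). Fusion and immunophenotype cannot be told apart, since each immunophenotype had 1 leukemia.

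Genes of like pattern were taken as the 3 with the smallest distance between log2 profiles centred over the 4 arrays, among 10315 genes with a range of at least 1. Nearest to Col1a2 were Cd8b1, a coreceptor chain of T cells (distance 0.41), the transcription factor gene Hivep3 (0.53) and the G protein-coupled receptor gene Gpr83 (0.53). Cd8b1 had signals of 55.4 in the mixed lineage leukemia, 68.6 in the proB ALL and 4987 in the B/T BAL, against 236 in normal marrow. Nearest to Col3a1 were Ilvbl (0.34), the cartilage proteoglycan gene Acan (0.46) and Egfl8 (0.46). Nearest to Adipoq were Alox5, a lipoxygenase of myeloid cells (0.19), Olfml2b (0.31) and Pygl, a glycogen phosphorylase (0.31). Alox5 had 9126 in the mixed lineage leukemia, 285 in the proB ALL and 888 in the B/T BAL, against 4123 in normal marrow. Nearest to Lepr were Bst1, an ectoenzyme of marrow stromal and myeloid cells (0.03), the gene 1700067K01Rik (0.09) and Camp, a neutrophil granule peptide (0.13). Nearest to Cxcl12 were Naip6, Tspan17 and Gsta4, at distances of 0.13, 0.14 and 0.18. With 4 arrays, many genes lie near any profile, and these distances are descriptions. For the other 4 genes the nearest were Slc30a3 for Col1a1, 1110006O24Rik for Sparc, Tlr6 for Kitl and Tfrc for Cdh5, at distances of 0.05, 0.07, 0.05 and 0.06.

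Other genes of the same tissues were then read against the set. Of 17 measured matrix genes, 8 were at least 2-fold higher in B/T BAL than in normal marrow and 0 lower. Over all tested genes 15.4% were higher and 17.7% lower. The matrix genes had a median log2 difference of 0.74 in B/T BAL, against 0.05 over all tested genes. The corresponding counts were 2 higher and 2 lower in mixed lineage leukemia, against 18.8% and 15.2% of tested genes. In proB ALL they were 0 higher and 2 lower, against 11.3% and 18.7%. These shares also stand beside the counts of each list below. Counts near them are not read as a result about a list. Among the matrix genes counted as lower in mixed lineage leukemia, Col5a2 had 37.7 there, below the floor. Normal marrow, with 191, lay just above the floor, so a 2-fold difference of Col5a2 is not settled. Dcn, counted as higher in mixed lineage leukemia, had 442 there against 186 in normal marrow, which lay below the floor. Col6a1, a chain of type VI collagen, had signals of 555 in the mixed lineage leukemia, 562 in the proB ALL and 1897 in the B/T BAL, against 354 in normal marrow. Col5a1, a chain of type V collagen, had 1090, 203 and 1265 in the same leukemias, against 1877 in normal marrow. Fn1, fibronectin, which macrophages also make, had 43413, 666 and 4538 in the same leukemias, against 4677 in normal marrow, highest in mixed lineage leukemia.

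Reticular stroma genes gave a mixed picture. Of 12 with a probe set, 9 passed the filter, of which 3 were at least 2-fold higher and 1 lower in B/T BAL, 3 higher and 2 lower in mixed lineage leukemia, and 0 higher and 1 lower in proB ALL. Of the genes counted as higher, Pdgfra and Ebf3 passed the filter through B/T BAL alone and Foxc1 and Grem1 through mixed lineage leukemia alone, so these counts are partly set by the filter. The 2 counted as lower in mixed lineage leukemia were also Pdgfra and Ebf3. Both lay below the floor there and in normal marrow, so no fold is given. Pdgfrb, a growth factor receptor of mesenchymal cells, had 461 in the mixed lineage leukemia, 459 in the proB ALL and 30356 in the B/T BAL, against 427 in normal marrow. Its other probe set had 170, 107 and 6648 in the same leukemias, against 118 in normal marrow, so both were highest in B/T BAL, as Col1a2 was. The related receptor gene Pdgfra, named here after its values were seen, had 47.2, 167 and 412 in the same leukemias, against 170 in normal marrow. Vcam1, an adhesion protein of stromal cells and macrophages, had 7660, 4344 and 988 in the same leukemias, against 10584 in normal marrow, lowest in B/T BAL. A further Vcam1 probe set was highest in mixed lineage leukemia, with 1176, 314 and 170 in the same leukemias, against 580 in normal marrow. The remaining one had 1375, 368 and 317, against 2143 in normal marrow. Foxc1, a transcription factor of reticular cells, was above the floor in mixed lineage leukemia alone, with 290 against 56.6 in normal marrow, and the other probe set was above it in B/T BAL alone, with 216.

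Lists of other stromal classes were mostly dim. Of 7 osteoblast genes with a probe set, 6 were above the floor in the mixed lineage leukemia, 1 in the proB ALL and 3 in the B/T BAL, against 3 in normal marrow. Alpl, the alkaline phosphatase of osteoblasts, had 273 in the mixed lineage leukemia, 136 in the proB ALL and 1051 in the B/T BAL, against 263 in normal marrow. Mepe and Phex, a matrix protein and an endopeptidase of bone cells, were above the floor in mixed lineage leukemia alone, with 226 and 203, on the array with the highest share of probe sets above the floor, and they passed the filter through that array alone. Of 6 adipocyte genes with a probe set, 3 passed the filter, and 0 were at least 2-fold higher in any leukemia. Lpl, lipoprotein lipase, had 2366, 1178 and 1764 in the mixed lineage leukemia, proB ALL and the B/T BAL, against 4398 in normal marrow, and Fabp4, a fatty acid carrier that macrophages also express, had 2235, 1897 and 4103, against 4701 in normal marrow. Pparg, the regulator of fat cell formation, had 111, 221 and 161, against 337 in normal marrow. By these probe sets none of the 3 shared the higher signal of Adipoq in mixed lineage leukemia. The other Lpl probe set had 612, 177 and 350 in the same leukemias, against 587 in normal marrow. It had the same highest and lowest arrays as Adipoq, though mixed lineage leukemia lay close to normal marrow.

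The endothelial genes other than Cdh5 gave unequal counts on the 3 leukemia arrays. Of 12 that passed the filter, mixed lineage leukemia had 6 at least 2-fold below normal marrow and 2 above it, proB ALL had 7 below and 0 above, and B/T BAL had 4 below and 0 above, with median log2 differences of -1.06, -1.07 and -0.53. Kdr, Tek and Flt1 passed the filter through normal marrow alone and Sox17 through mixed lineage leukemia alone, so their differences are partly set by the filter and these counts support no direction for the list. Plvap, a protein of endothelial pores, had 65.4 in the mixed lineage leukemia, 287 in the proB ALL and 402 in the B/T BAL, against 735 in normal marrow. Eng, endoglin, had 263, 416 and 2145 in the same leukemias, against 1473 in normal marrow. Eng is also found on early red cell precursors and macrophages, and Erg, an endothelial and blood stem cell factor, had 3214, 55.3 and 122 in the same leukemias, against 1097 in normal marrow. Megakaryocyte genes share several endothelial proteins, and most of them were lower. Of 10, the count at least 2-fold lower was 8 in the mixed lineage leukemia, 9 in the proB ALL and 9 in the B/T BAL. The B/T BAL count includes Gp6, below the floor on both arrays, with 33.9 against 175.5 in normal marrow. Gp6 passed the filter through mixed lineage leukemia alone. Pf4 and Ppbp, platelet chemokines, had 531 and 351 in the mixed lineage leukemia, 883 and 244 in the proB ALL and 738 and 248 in the B/T BAL, against 10077 and 16168 in normal marrow. The part of megakaryocytes in the endothelial list was not tested.

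Of 5 mural and smooth muscle genes that passed the filter, 3 were at least 2-fold higher in the mixed lineage leukemia, 0 in the proB ALL and 2 in the B/T BAL, and 1, Acta2, was lower in proB ALL. Cnn1, a smooth muscle calponin, had 307 in mixed lineage leukemia, with the other 3 arrays below the floor, and Tagln passed the filter through B/T BAL alone, so both had to differ there. Des, desmin, had 280 in the mixed lineage leukemia, 20.8 in the proB ALL and 279 in the B/T BAL, against 43.8 in normal marrow. Des passed the filter through mixed lineage leukemia and B/T BAL alone. The higher counts of both leukemias are therefore partly set by the filter. The other probe set of Des lay below the floor on each array. It had 173, 90.1 and 17.6 in the same leukemias, against 148 in normal marrow, and was lowest in B/T BAL. Acta2, smooth muscle actin, had 1677, 653 and 1691 in the same leukemias, against 1913 in normal marrow.

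Of 8 other niche factors with a probe set, 6 passed the filter. The counts at least 2-fold higher and lower were 2 and 2 in mixed lineage leukemia, 1 and 2 in proB ALL, and 1 and 3 in B/T BAL. Il7, counted as higher in mixed lineage leukemia, passed the filter through that array alone, with 324 against 134 in normal marrow. Tnfsf11 was the gene counted as higher in proB ALL and B/T BAL, and it passed through those arrays alone. The higher counts are therefore partly set by the filter. Tnfsf11, the cytokine RANKL of osteoblasts and also of activated T cells, had 55.9, 647 and 775 in the mixed lineage leukemia, proB ALL and the B/T BAL, against 30.2 in normal marrow, above the floor in both leukemias with AF4-MLL alone. Its other probe set lay below the floor on all 4 arrays. Jag1, a Notch ligand, had 1042 in the mixed lineage leukemia, 220 in the proB ALL and 264 in the B/T BAL, against 268 in normal marrow, while of its other 2 probe sets 1 was above the floor in mixed lineage leukemia alone and 1 in B/T BAL alone. Igf1, an insulin-like growth factor that macrophages also make, had 242, 277 and 252 in the same leukemias, against 1060 in normal marrow. Each of its 4 probe sets was highest in normal marrow. The summed signal of 9 macrophage genes was also lower on each leukemia array. It was 22305 in the mixed lineage leukemia, 18830 in the proB ALL and 10812 in the B/T BAL, against 47625 in normal marrow. Among them C1qa and C1qb, complement components, had 443 and 298 in the mixed lineage leukemia, 4106 and 2851 in the proB ALL and 1421 and 1907 in the B/T BAL, against 6048 and 5164 in normal marrow, while Csf1r, the receptor of the growth factor CSF1, had 17085, 5169 and 5175, against 14944 in normal marrow. The part of macrophages in the Igf1 and Vcam1 signals was not tested.

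In limma over the 3 leukemias, 0 genes of these stromal, endothelial, niche factor and receptor lists passed the adjusted threshold in either direction. No tested gene passed it either. At an unadjusted p of 0.05 there was 1 over all these lists, Adipor1, which was lower and is among the 8 tested receptors and binding partners. Of all tested genes 2.95% passed unadjusted (0.314% higher and 2.64% lower), so this count is not read as a result about the lists. The unsorted leukemic marrows also kept few red cell genes: the summed signal of 6 was 823 in the mixed lineage leukemia, 886 in the proB ALL and 1426 in the B/T BAL, against 134764 in normal marrow. All 6 were lower than in normal marrow by at least 2-fold in each of the 3 leukemias. Of the 7 neutrophil genes, 0 were at least 2-fold higher in any leukemia, and 0, 5 and 2 were lower in the mixed lineage leukemia, proB ALL and the B/T BAL. Of 6 lymphoid genes, the counts higher and lower were 0 and 2, 3 and 3, and 2 and 3 in the same leukemias. Of 9 macrophage genes, 6, 6 and 8 were lower in the same leukemias and 1 was higher, in mixed lineage leukemia. The higher gene, Siglec1, passed the filter through that array alone, with 283 against 29.6 in normal marrow. The part of these blood cell differences in the stromal values was not tested.

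**Figure D4:**
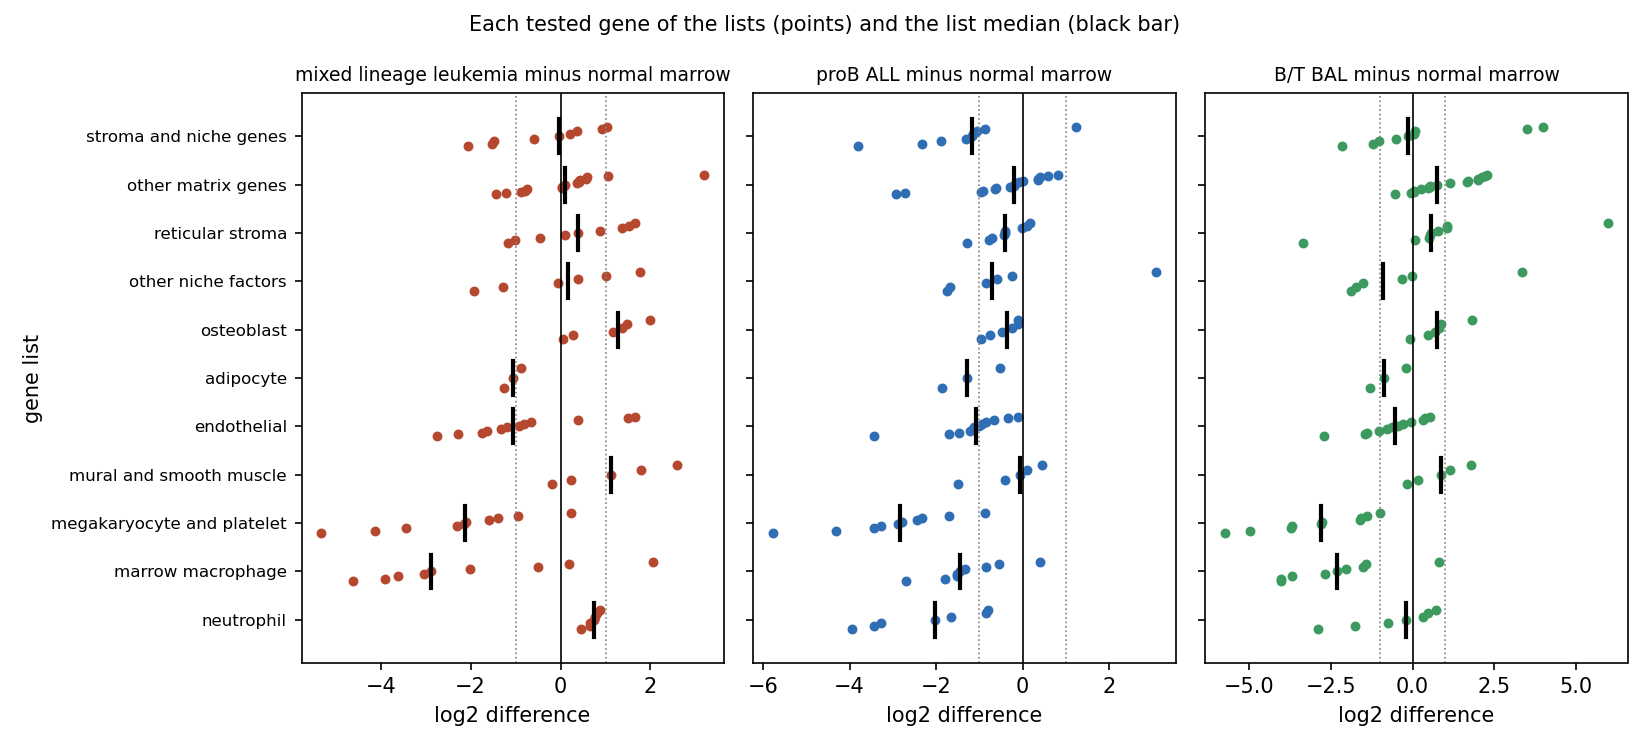
Log2 difference from normal marrow of each tested gene (points, spread vertically for visibility) by gene list in the mixed lineage leukemia, proB ALL and the B/T BAL, with the list median as a black bar and dotted lines at 2-fold. Matrix genes have a median of 0.74 in B/T BAL and neutrophil genes have medians of 0.74 in mixed lineage leukemia and -2.03 in proB ALL.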

How the data were processed

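The authors deposited linear intensity values, 1 for each probe set and array; the submitters' processing notes name MAS5 as the tool, with no version. The mean without the top and bottom 2% of signals was 1000 on each of the 4 arrays. MAS5 detection calls were not used here, and the number of arrays limits the precision. The members and gene lists were chosen with earlier results of these data known.

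Probe sets with 1 gene symbol in the platform annotation (34945 of 45101) were used. Of the rest, 932 had several symbols, 9160 were unnamed and 64 were controls. Each of 18193 genes was represented by the probe set highest in mean log2(signal + 51.5), and 14000 with a signal above 189 on at least 1 array were tested with limma 3.58.1 in R 4.3.3 (lmFit, eBayes with trend, Benjamini-Hochberg adjustment). From 13 further gene lists, up to 3 genes each were named by their largest difference on any leukemia array or, for blood cell lists, by mean signal, together with Cxcr4, Kit, Lep, Adipor1 and Adipor2. Pdgfra and the lymphoid genes were named after their values were seen. Alternatives covered the pseudocount, filter, scaling, probe set choice, eBayes settings and leaving out each leukemia. The eBayes settings and the leaving out of a leukemia were applied to leukemia against normal marrow alone.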

Additional observations from a re-analysis of the deposited data

Results flagged for a closer look

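For 2 genes one leukemia was at least 2-fold above and another at least 2-fold below normal marrow. Col1a2 had a log2 difference of 3.98 in B/T BAL and of -1.48 in mixed lineage leukemia. Lepr had 1.03 in mixed lineage leukemia and -1.89 in proB ALL. Each rests on 1 array a group that share the 1 normal array, and the difference between the leukemias was not tested.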

How the results depend on the processing

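The count of genes passing limma was 0 in leukemia against normal marrow under all 14 alternatives, including each leukemia left out in turn, and 0 under all 9 alternatives of the contrast between fusions. With each leukemia left out the range was 0 to 0. With 1 normal array or 1 residual degree of freedom, and no gene passing at all, these counts of 0 say nothing about stability. Several counts past 2-fold moved. With a pseudocount at the 50th percentile the higher count was 0 in mixed lineage leukemia and 0 in proB ALL, and the lower counts of proB ALL and B/T BAL were 4 and 1. With the mean over probe sets the higher count was 0 in mixed lineage leukemia and 0 in proB ALL, and the lower count was 1 in each of mixed lineage leukemia and B/T BAL. Quantile normalization and scaling to the 75th percentile each gave 2 higher in mixed lineage leukemia. Without probe sets ending in _x_at, _s_at or _a_at the higher counts of proB ALL and B/T BAL were 0 and 1. There Col3a1 in proB ALL turned to a log2 difference of -0.37, since only its other probe set remained. Of 189 single differences under other settings, 168 moved by less than 1.5-fold and 20 by more. This 1 turned from at least 2-fold to the opposite sign. Sign changes of smaller differences were not counted apart.

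Other probe sets of a gene gave 45 differences, of which 11 had the opposite sign to a 2-fold difference of the representative. In mixed lineage leukemia these were Col1a2 (1.60), Sparc (0.54), Lepr (-1.13) and Cdh5 (1.62). In proB ALL they were Col3a1 (-0.37), Cxcl12 (0.63), Kitl (0.51), Lepr (0.33) and Cdh5 (0.016), and in B/T BAL Kitl (0.86) and Cdh5 (0.71). In proB ALL the opposing probe set of each of these 5 genes lay below the floor on both arrays. The cause was not tested. No paired analysis was possible because each group has 1 array.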
